A study of Mus musculus with 4 samples.

Results

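The genes described here are Gfi1, the corepressor genes Kdm1a, Rcor1, Hdac1, Hdac2 and Ehmt2, and the Id genes Id1, Id2 and Id3, measured in control and SH-2251-treated Th2 cells. They were chosen by name, and 8 of the 9 genes had at least 1 named probe, out of 18539 genes named on the arrays. No probe was matched to Hdac1, which is not analysed here. SH-2251 is a small molecule of the thioamide kind that lowers IL-5 output by T cells. Splenic CD4 T cells of female C57BL/6J mice, young adults per the study's methods, were isolated by magnetic sorting. They received immobilized anti-TCR-β (3 µg/ml) with anti-CD28 (1 µg/ml) for 2 days, and then rested from these antibodies for 3 days. All 4 conditions had IL-4 at 10 ng/ml and IL-2 at 2.5 ng/ml throughout. The control cells had no SH-2251, and the treated cells had it in both phases, at a labelled dose of 1 µM in the first and 1 mM in the second. The study's methods name a lower dose, and naïve CD4 T cells as the starting cells, so dose and starting population are uncertain. Each culture was then left resting or was restimulated for 4 h with immobilized anti-TCR-β alone, and RNA of each of the 4 conditions was hybridized to 1 single-color Agilent array. How many mice gave the cells of an array is not given in the sources used here.

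Gfi1 is a zinc finger protein that binds DNA and represses transcription in T cells, granulocyte precursors and stem cells of the blood. It recruits a histone demethylase complex (Kdm1a, also called LSD1, with its partner Rcor1, or CoREST), the histone deacetylases Hdac1 and Hdac2, and the H3K9 methyltransferase Ehmt2, or G9a. The Id proteins are helix-loop-helix proteins without a DNA-binding part. They hold E proteins such as E2A away from DNA, and they tune the development and the effector and memory fates of T cells. Id1 and Id2 are known as genes that Gfi1 represses in blood cell precursors.

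A level below is the log2 of a probe's intensity minus the log2 of the 75th percentile of its array, so that 0 is a signal at that percentile. A difference is a difference of such levels, and a difference of 1 is 2-fold. Levels of different probes cannot be set against each other. Each condition had 1 array, so that differences could be neither tested nor checked against replicates, and precision is limited by the array number. The SD beside a difference is the scanner software's own error estimate, which covers error within the arrays only. A difference under 2 of these SDs is called within technical error. All 11 probes of the 8 genes were well above background on all 4 arrays. Each array had between 56.0% and 56.7% of its probes above background and no saturated spot, and the software's check of negative controls was out of range on 3 of the 4 arrays. The 6 T cell marker genes were above background on every array, as were the 5 Th2 genes. The myeloid markers Lyz2 and Itgam and the NK cell markers Klrb1c and Ncr1 were not on any. Other markers of such cells were above background on every array: the myeloid genes Adgre1, Csf1r and Cd14, and the CD8 gene Cd8a. So were 7 of 8 B cell markers.

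Promoters are shown for Gfi1, Id3 and Id2, whose signals differed between SH-2251-treated and control cells by more than the technical error in both states. Id1 also did so, but the promoter table used here had no entry for it. Each is the 250 bases before a RefSeq transcription start in GRCm38.p6, written 5′ to 3′ on the gene's strand. The windows are chr5:107725806-107726055 (minus strand) for Gfi1, chr4:136143572-136143821 (plus strand) for Id3 and chr12:25096093-25096342 (minus strand) for Id2. Capitals mark AATC, the core of the sites Gfi1 binds, or GATT, which is AATC read on the other strand.
Gfi1: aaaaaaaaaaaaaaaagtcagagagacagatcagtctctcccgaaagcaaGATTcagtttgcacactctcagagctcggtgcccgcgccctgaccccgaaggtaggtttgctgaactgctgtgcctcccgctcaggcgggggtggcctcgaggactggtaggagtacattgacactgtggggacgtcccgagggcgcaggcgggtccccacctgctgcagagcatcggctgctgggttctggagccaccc
Id3: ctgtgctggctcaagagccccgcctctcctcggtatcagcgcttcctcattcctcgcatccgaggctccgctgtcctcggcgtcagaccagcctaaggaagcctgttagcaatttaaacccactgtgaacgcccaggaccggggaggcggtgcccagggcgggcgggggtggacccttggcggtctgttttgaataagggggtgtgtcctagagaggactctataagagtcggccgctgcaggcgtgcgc
Id2: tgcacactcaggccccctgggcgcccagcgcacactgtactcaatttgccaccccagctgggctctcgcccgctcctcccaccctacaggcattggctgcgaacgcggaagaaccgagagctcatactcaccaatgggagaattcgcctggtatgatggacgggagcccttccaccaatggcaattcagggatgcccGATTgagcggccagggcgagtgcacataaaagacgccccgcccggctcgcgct
The Gfi1 window held 1 such match, 200 bases before the start, and the Id2 window held 1, 53 bases before the start. The Id3 window held none. Of 32851 promoter windows of the same length, 69.0% held AATC on either strand, so that a match is the usual case. The longer form AAATCA, which contains AATC, was in 12.4% of all windows and in none of these. The E box CANNTG, the site of E proteins, reads the same on both strands and was in 66.2% of all windows. It occurred 1 time in the Gfi1 and in the Id2 window and was not found in the Id3 window. A second RefSeq start of Gfi1 had no AATC and 1 CANNTG in its window (chr5:107724344-107724593). A match in letters is no evidence of binding, and the absence of one says only that the letters are not in these bases.

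**Figure D1:**
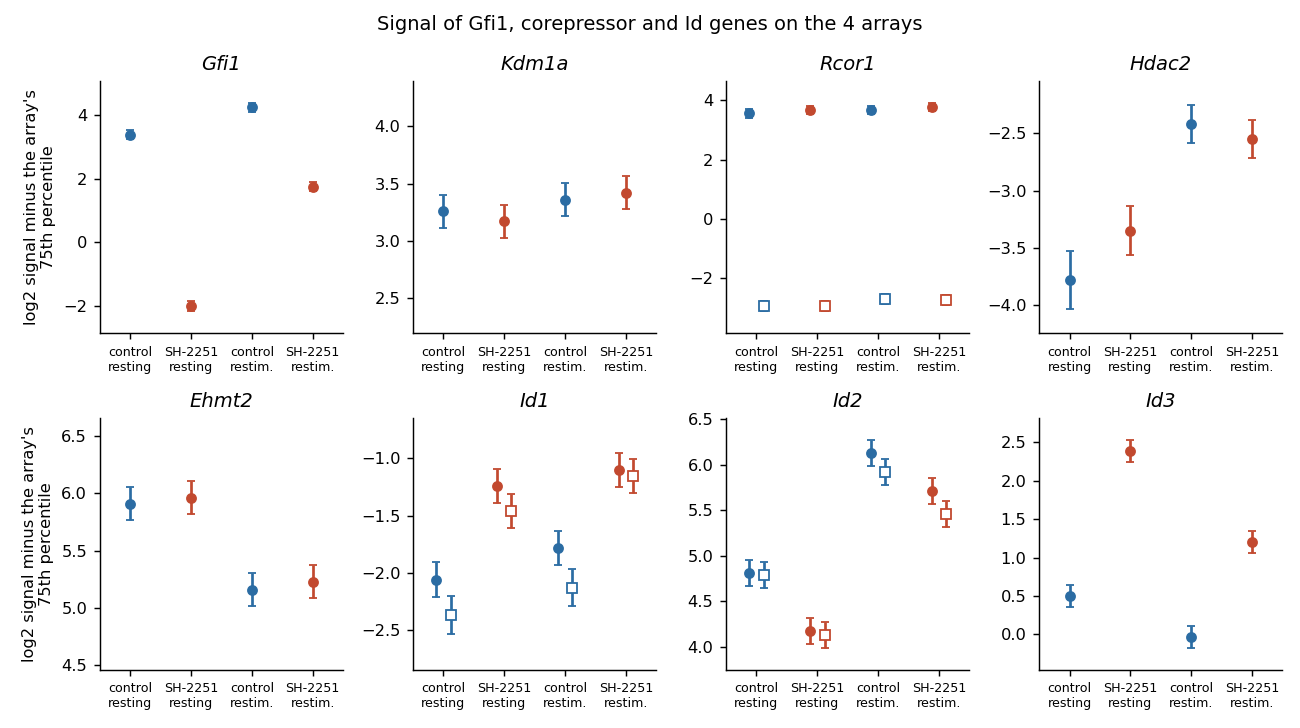
Level of each gene on the 4 arrays (y axis, log2 intensity minus the array's 75th percentile, with its own range for each gene) in control (blue) and SH-2251-treated (red) cells, resting or restimulated for 4 h; filled points are the probe used for the gene, open squares its second probe, and bars are 1 technical SD. Gfi1 ran from 4.24 to -2.01 and Id3 from -0.03 to 2.39 with the 4 conditions in opposite order, while Kdm1a stayed within 0.24 and the brighter Rcor1 probe within 0.20.

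Gfi1 was lower with SH-2251 in both states. Its intensity was 5857 in the resting control cells, 153 in the resting SH-2251-treated cells, 9438 in the restimulated control cells and 1955 in the restimulated SH-2251-treated cells. On the log2 scale these are levels of 3.38, -2.01, 4.24 and 1.75. The signal left with SH-2251 was 2.39% of the control in the resting cells and 17.7% in the restimulated cells. Restimulation thus did not bring the treated cells to the resting control level: the restimulated SH-2251 level was -1.64 from the resting control level (technical SD 0.204), or 32.1% of it. All steps in the order of the 4 levels were beyond technical error. The same order was found for 6.01% of the 11518 genes above background on all 4 arrays. In bulk RNA, fewer cells with the transcript and less transcript per cell cannot be told apart.

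On the log2 scale, the response of Gfi1 to restimulation was larger in the treated cells, which started from a lower level. In intensity the step was larger in the control cells, from 5857 to 9438, than in the treated cells, from 153 to 1955. Restimulated minus resting, the Gfi1 level differed by 0.86 (SD 0.204) in the control cells and by 3.75 (SD 0.21) in the treated cells. The difference of these responses was 2.90 (SD 0.293), or 7.44-fold, and it ranked 3 from the highest among 11518 genes, of which 0.738% reached 2-fold in that direction and 0.478% in the other. No other gene of the group reached 2-fold there. Under a model-based background correction (normexp), Gfi1 in resting cells was -4.32, its response in treated cells 2.72 and the difference of responses 1.88. Hdac2 then passed 2-fold in the difference of responses at -1.09. With spots of uneven background left out of normexp, the Gfi1 values were -4.80, 3.20 and 2.36, and that of Hdac2 was -0.15, short of 2-fold.

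The corepressor genes differed little with SH-2251. Kdm1a, the demethylase, had levels of 3.26 and 3.17 in resting control and treated cells, and of 3.36 and 3.42 after restimulation. Its differences were -0.09 and 0.05 (SD 0.204 each), and no step between its 4 levels was beyond technical error. Rcor1, which holds Kdm1a on nucleosomes, had levels of 3.56, 3.68, 3.67 and 3.77 in the same order of arrays. Treated minus control, these give 0.12 for the resting and 0.10 for the restimulated pair (SD 0.204 each). Its second, dimmer probe gave 0.00 and -0.04, so that both probes put Rcor1 within technical error.

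Ehmt2, which methylates H3K9, was lower after restimulation in both treatments. Its levels were 5.91 and 5.96 in resting and 5.16 and 5.23 in restimulated cells, control before treated in each pair. The treated cells differed from the control by 0.05 and 0.07, within technical error. Restimulated minus resting, the difference was -0.75 in the control and -0.73 in the treated cells (SD 0.204 each), and the difference of the responses was 0.02 (SD 0.289).

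Hdac2, a deacetylase gene, was measured near the low end of the range. Its intensities were 41.0, 60.3, 93.1 and 99.2 in resting control, resting treated, restimulated control and restimulated treated cells, where the dimmest probes above background had 19.8 to 24.4. Treated minus control, it differed by 0.43 (SD 0.334) at rest and by -0.13 (SD 0.236) after restimulation, both within technical error. Restimulated minus resting, it differed by 1.35 (SD 0.306) in control and 0.79 (SD 0.272) in treated cells. Under normexp its response was -0.52 in treated cells, which turns the direction, and 0.57 in control cells. Its difference with SH-2251 at rest was then 1.03. With spots of uneven background left out of normexp, these values were 0.42, 0.57 and 0.09, without the turn.

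**Figure D2:**
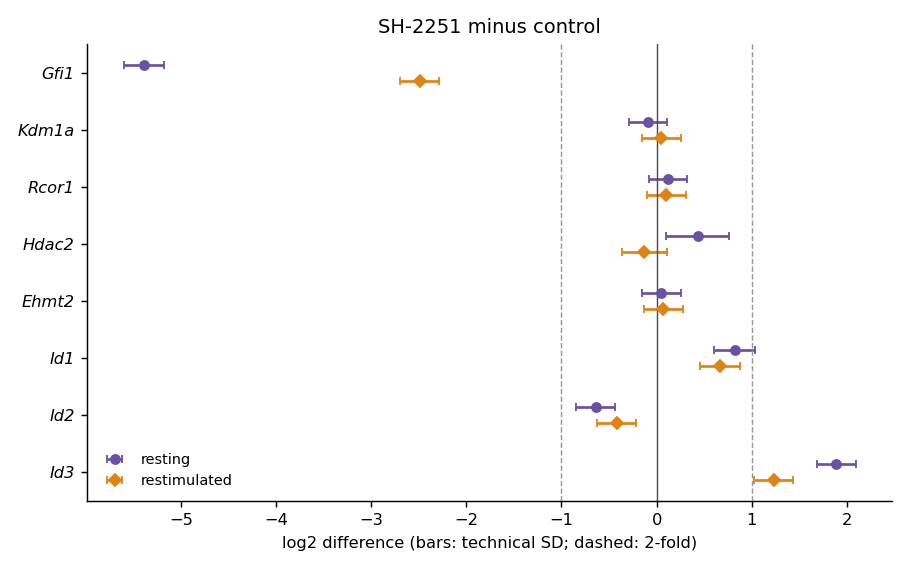
Log2 difference in level, SH-2251 minus control (x axis), for the 8 genes in resting (purple circles) and restimulated (orange diamonds) cells, with bars of 1 technical SD and dashed lines at 2-fold. Gfi1 lies at -5.39 and -2.49 and Id3 at 1.89 and 1.23, outside the dashed lines in both states, and the 4 corepressor genes lie between -0.13 and 0.43.

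The Id genes did not move in 1 direction with SH-2251: Id3 and Id1 were higher and Id2 was lower, in both states. Id3, a feedback inhibitor induced through the T cell receptor in developing T cells, had intensities of 791 in resting control and 3212 in resting treated cells. After restimulation they were 489.8 in control and 1342 in treated cells. Its levels were thus 0.50, 2.39, -0.03 and 1.20, and both treated arrays lay above both control arrays. The difference was 1.89 (SD 0.204), or 3.71-fold, in resting cells, where it ranked 38 from the highest of 11874 genes. In restimulated cells it was 1.23 (SD 0.204), or 2.35-fold, and ranked 154 from the highest of 11812. The 4 levels of Id3 stood in exactly the reverse order of those of Gfi1, with every step (1.18, 0.71 and 0.52) beyond technical error. That reverse order was shared by 488 genes, or 4.24% of those above background on all 4 arrays, and 4 points cannot show that the genes depend on each other.

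Id1, which is best known from stem cells and endothelium and was dim here, had levels of -2.06 and -1.24 in resting control and treated cells and of -1.78 and -1.10 in restimulated control and treated cells. Both treated arrays lay above both control arrays. The difference was 0.82 (SD 0.212), or 1.77-fold, in resting and 0.67 (SD 0.21), or 1.59-fold, in restimulated cells. The second Id1 probe gave 0.90 and 0.98, or 1.87- and 1.97-fold, the same direction with values just short of 2-fold.

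Id2, which effector T cells express at high level, was lower with SH-2251. Its levels were 4.81 in resting control, 4.17 in resting treated, 6.13 in restimulated control and 5.71 in restimulated treated cells. The differences with SH-2251 were -0.64 and -0.42 (SD 0.204 each), and the second probe gave -0.66 and -0.46. These were under 2-fold, and in restimulated cells the main probe was just beyond technical error and came within it with median (-0.37) or quantile (-0.32) scaling. The restimulated arrays lay above the resting ones in both treatments. Restimulated treated cells had 187% of the Id2 signal of resting control cells, where Gfi1 had 32.1%.

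In resting cells, of the 8 genes, Gfi1 alone was at least 2-fold lower with SH-2251, against 2.9% of the 12683 genes compared, and Id3 alone was at least 2-fold higher, against 2.22%. In restimulated cells these were again Gfi1 lower, against 2.78% of 12622 genes, and Id3 higher, against 2.65%. The median difference of the 8 genes was 0.08 in resting and 0.06 in restimulated cells, and that of all genes was -0.055 and -0.063. In either state 4 of the 8 genes (Kdm1a, Rcor1, Hdac2 and Ehmt2) were within technical error, as were 81.1% of all genes measured on both resting arrays and 80.9% of those measured on both restimulated arrays.

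Some marker genes of other cell types moved with SH-2251 beside Id3 and Id1. The B cell markers had a summed signal of 40.9 and 35.6 times the 75th percentile in resting control and treated cells. In restimulated control and treated cells it was 33.0 and 45.8 times, with 7 of 8 genes above background on each array. The sum of a list takes all its genes on the arrays and is weighted to the brightest. In resting control cells this was H2-Ab1, at a level of 4.82, which differed by -0.51 and -0.06 with SH-2251. Of the 7 B cell genes compared, 3 were lower and 4 higher at rest, and 2 lower and 5 higher after restimulation. Among them Ms4a1 (CD20) differed by 0.74 and 1.21 and Cd74 by 0.39 and 1.19 in resting and restimulated cells, while the defining B cell factor gene Pax5 was not above background on any array. The CD8 gene Cd8a differed by 1.45 and 0.97. The CD8 and NK cell markers as a list, with 1 of 4 measured genes above background on each control array and 2 of 4 on each treated array, summed to 0.121 and 0.312 in resting and 0.184 and 0.347 in restimulated cells. The regulatory T cell markers Foxp3 and Ikzf2 summed to 0.134 and 0.227 in resting cells, with both above background. In restimulated cells they summed to 0.0789 and 0.175, with neither above background in the control. With SH-2251, Foxp3 differed by 0.10 (SD 0.347) at rest, within technical error, and by at least 0.71, a bound, after restimulation. Ikzf2 differed by 1.26 (SD 0.312) at rest and by at least 1.40, a bound, after restimulation. Myeloid markers, with 3 to 4 of 6 above background, summed to between 2.48 and 3.05. The part of other cells in the Id3 and Id1 signals was not tested.

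**Figure D3:**
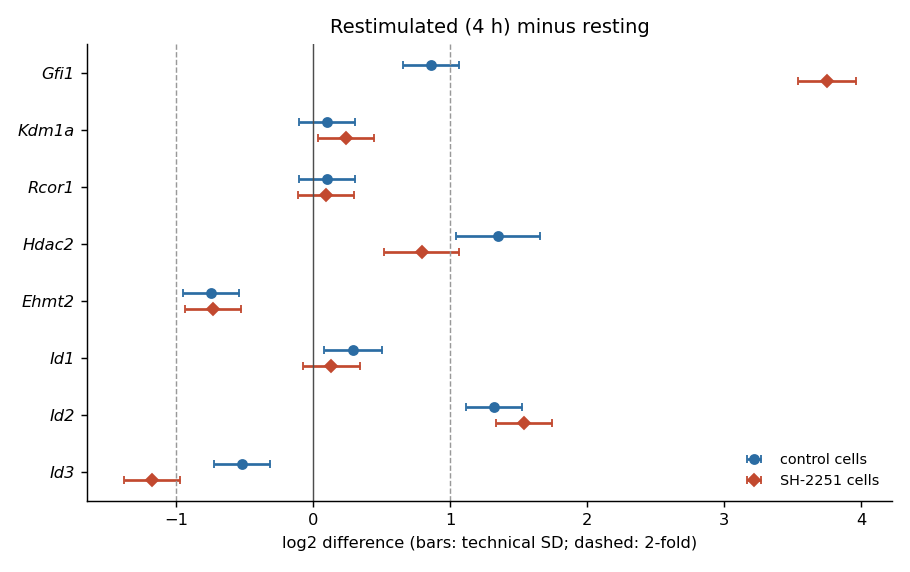
Log2 difference in level, restimulated for 4 h minus resting (x axis), for the 8 genes in control (blue circles) and SH-2251-treated (red diamonds) cells, with bars of 1 technical SD and dashed lines at 2-fold. Gfi1 lies at 0.86 in control and 3.75 in treated cells, and Id2 lies beyond 2-fold in both at 1.32 and 1.54.

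Restimulation through the T cell receptor for 4 h was followed by higher Id2 and lower Id3 signals in both treatments. Id2 differed by 1.32, or 2.49-fold, in control and by 1.54, or 2.91-fold, in treated cells (SD 0.204 each), and its second probe gave 1.13 and 1.33. Id3 differed by -0.52 (SD 0.205) in control and by -1.18 (SD 0.204), or 2.27-fold lower, in treated cells. The difference of the Id3 responses was -0.66 (SD 0.289), just beyond technical error, and the treated cells started from a higher level. Under normexp the Id3 response in treated cells was -0.92, short of 2-fold, and the difference of responses -0.50, within technical error. With spots of uneven background left out of normexp, these were -1.15 and -0.73. Id1 was within technical error in both treatments, at 0.29 and 0.13.

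In control cells 2 of the 8 genes (Hdac2 and Id2) were at least 2-fold higher after restimulation, against 7.2% of 12757 genes, and none was 2-fold lower, against 7.34%. In treated cells Gfi1 and Id2 were at least 2-fold higher, against 7.09% of 12613 genes, and Id3 was 2-fold lower, against 6.98%. Gfi1 ranked 1013 from the highest of 11855 genes in the control cells and 29 from the highest of 11766 in the treated cells.

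Other genes of the corepressor complexes were within technical error about as often as all genes. Of 21 listed relatives, 19 were above background, and the Gfi1 paralog Gfi1b and Runx1t1 were not on any array. With SH-2251, 17 of the 19 were within technical error in resting and 18 in restimulated cells, with medians of 0.13 and 0.11, beside 81.1% and 80.9% of all genes within it. The exception at 2-fold was Ajuba, a LIM protein that binds Gfi1, with a difference of 0.23 in resting and -1.06 (SD 0.272) in restimulated cells. Ajuba differed with restimulation by 1.25 in control and by -0.03 in treated cells. It was dim, with levels from -3.69 to -2.44. With restimulation, 9 of the 19 were within technical error in either treatment, beside 55.3% of all genes in control and 55.0% in treated cells. Rcor2, an Rcor1 relative, differed by -1.92 in control and -1.94 in treated cells. Kdm1b, the other demethylase of this family, was higher by 1.01 and 1.16, and Zbtb17 (Miz-1), a partner of Gfi1 at repressed genes, by 1.00 and 1.11. Counted at 2-fold after restimulation, Rcor2 was lower in both treatments, Kdm1b and Zbtb17 were higher in both, and Ajuba was higher in control cells, which is 4 of 19 genes in control and 3 of 19 in treated cells. Of all genes, 7.2% were 2-fold higher and 7.34% lower in control cells, and 7.09% and 6.98% in treated cells.

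**Figure D4:**
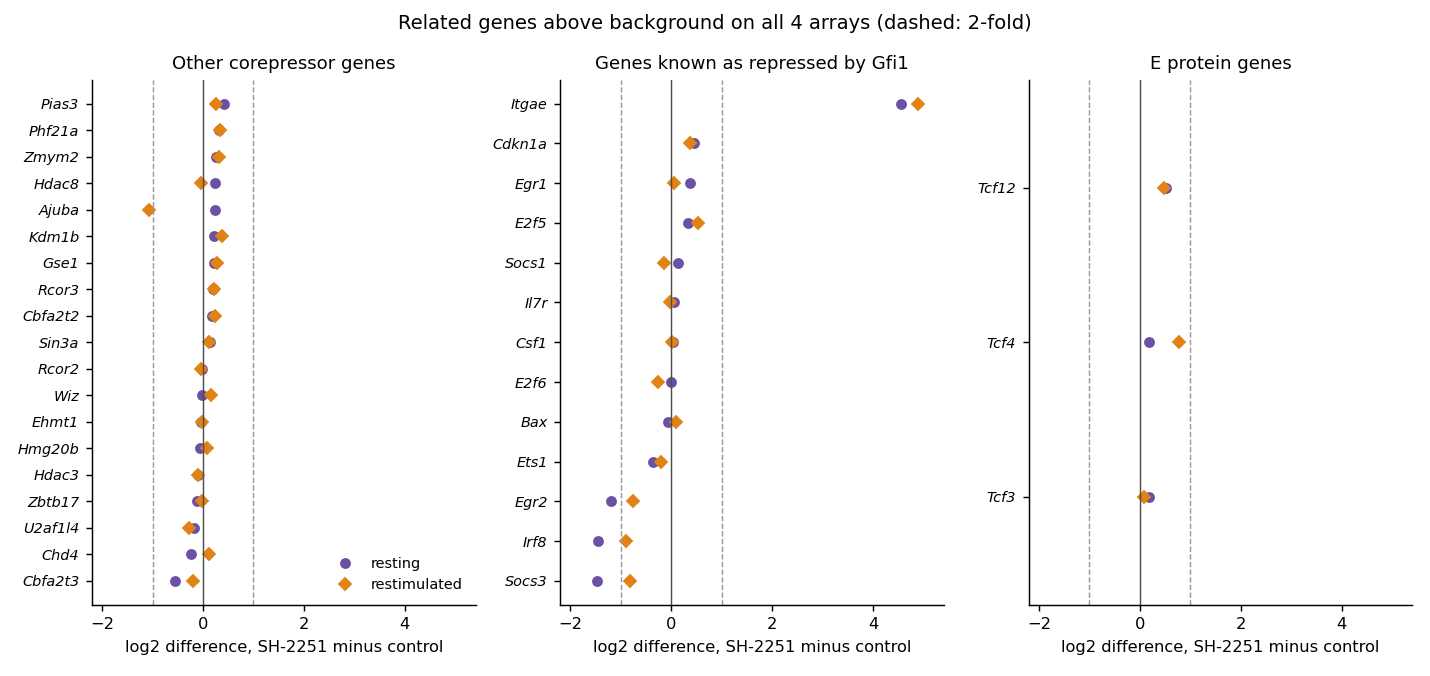
Log2 difference in level, SH-2251 minus control (x axis), in resting (purple circles) and restimulated (orange diamonds) cells for genes above background on all 4 arrays, in lists of other corepressor genes, genes known as repressed by Gfi1 and E protein genes, with dashed lines at 2-fold. Itgae lies at 4.54 and 4.89, Irf8, Egr2 and Socs3 lie past -1 in resting cells only, and Ajuba lies at -1.06 in restimulated cells.

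Genes known as repressed by Gfi1 in blood cells did not move in a common direction. Of 19 listed genes, 13 could be compared in resting cells, where 1 was at least 2-fold higher and 3 were at least 2-fold lower, beside 2.22% and 2.9% of all genes, with a median of 0.03. In restimulated cells 14 could be compared, with 1 higher and 1 lower, beside 2.65% and 2.78% of all genes, and a median of -0.08. The higher gene in either state was Itgae, the CD103 integrin chain, with levels of -1.21 in resting control, 3.33 in resting treated, -1.20 in restimulated control and 3.69 in restimulated treated cells. The differences of 4.54 and 4.89 ranked highest of all genes in both states, and it was listed with that result known. The lower genes in resting cells were the transcription factor genes Irf8 (-1.46) and Egr2 (-1.19) and the cytokine signalling inhibitor gene Socs3 (-1.48), with an SD of 0.204 to 0.205. In restimulated cells they differed by -0.90, -0.77 and -0.83. The lower gene in restimulated cells was Hoxa9, above background on the restimulated control array alone, with a bound of -2.15. The cell cycle inhibitor gene Cdkn1a differed by 0.45 and 0.37, and Il7r, the IL-7 receptor gene, by 0.05 and -0.03. Spi1, Cebpa, Elane, Meis1 and Gfi1b were not above background on any array.

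E protein genes, whose products Id proteins bind, were within 2-fold, with Tcf12 in both states and Tcf4 after restimulation beyond technical error. Tcf3 (E2A) differed with SH-2251 by 0.19 in resting and 0.08 in restimulated cells, Tcf12 (HEB) by 0.51 and 0.48, and Tcf4 (E2-2) by 0.19 and 0.78. Id4 was not above background on any array. Among genes known as activated by E proteins, Notch1 differed by -0.07 and -0.05 and Cxcr5 by -0.71 and -0.06, Rag1 and Rag2 were not above background, and no probe was matched to Ptcra. Of the Th2 genes that the study ties to Gfi1, Il5 differed by -3.86 and -3.01 and Gata3, the Th2 transcription factor gene, by -0.17 and -0.03. Il13, a Th2 cytokine gene among the Th2 markers, differed by -1.32 and -0.57.

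**Figure D5:**
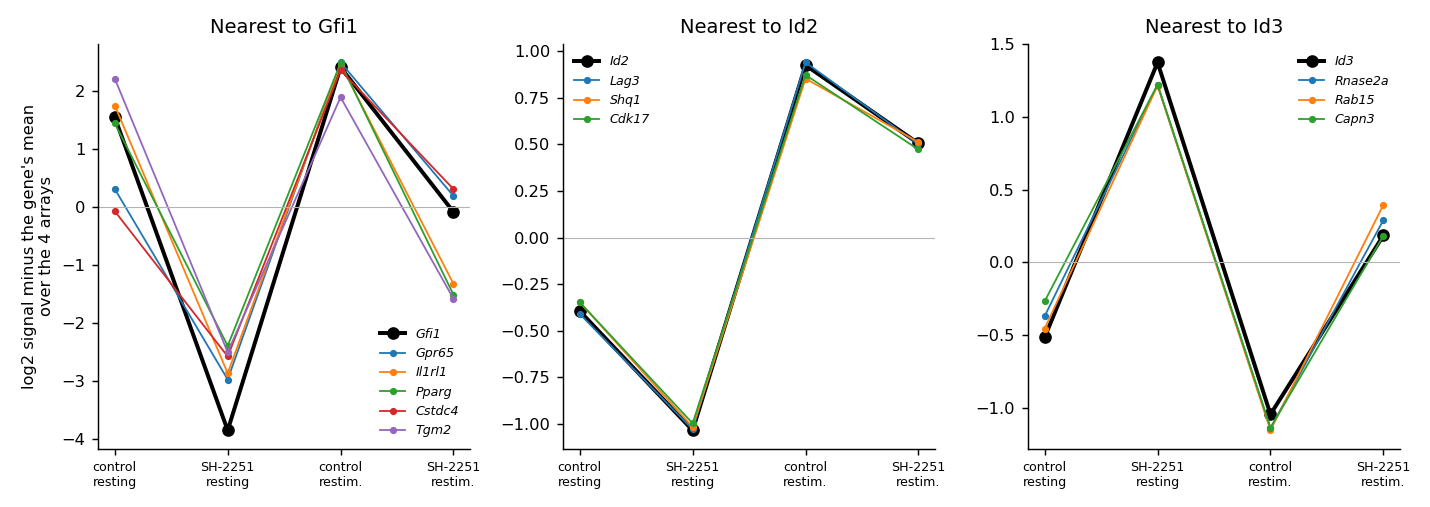
Level of Gfi1, Id2 and Id3 (black) and of the genes with the nearest profiles (colored), each minus its own mean over the 4 arrays (y axis, log2), in the 4 conditions (x axis). The nearest profile to Gfi1 lies at a distance of 1.54 and that to Id2 at 0.0244, and the lines of the genes nearest to Gfi1 stay above it in resting SH-2251-treated cells.

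Profiles over the 4 arrays were compared by the Euclidean distance between log2 levels, each minus the gene's own mean, among 11517 other genes. Nearest to Gfi1 were Gpr65, a proton-sensing receptor gene, at 1.54 and Il1rl1, the IL-33 receptor gene, at 1.59. Next came Pparg (2.03), Cstdc4 (2.1) and Tgm2 (2.17). In resting cells the Gfi1 difference with SH-2251 ranked 1 from the lowest of 11874 genes, so no other gene could match it. Those of these 5 genes ran from -4.71 to -2.50. In the difference of the responses, where Gfi1 ranked 3 from the highest, their largest value was 1.24 for Tgm2. Nearest to Id2 were Lag3, an inhibitory receptor gene, at 0.0244, Shq1 at 0.083 and Cdk17 at 0.0841. Lag3 differed with SH-2251 by -0.62 and -0.44 and with restimulation by 1.35 and 1.53. Nearest to Id3 were Rnase2a (0.252), Rab15 (0.288) and Capn3 (0.308). Their differences with SH-2251 spanned 1.49 to 1.67 at rest and 1.32 to 1.55 after restimulation, and their levels in control cells were -2.48 or lower. With 4 points a small distance is a description of these arrays only.

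The 3 coding genes on each side of Gfi1 and of each Id gene in the RefSeq order were looked at after the values were known. Evi5, next to Gfi1, differed with SH-2251 by at most -1.03, a bound, in resting cells and by -1.16 (SD 0.344) in restimulated cells. Its level was between -4.91 and -3.29. On the other side Rpap2 differed by -0.05 and -0.34 and Glmn, next to it, by -0.24 and -0.84. Rpl5 differed by -0.08 and -0.23. Near Id3, Tcea3, an elongation factor gene 3 genes away, differed by 2.60 (SD 0.298) and 1.18 (SD 0.301), and with restimulation by 0.12 in control and -1.30 in treated cells. Rpl11 and E2f2, which flank Id3, differed by -0.04 to 0.21. The measured neighbors of Id1 (H13, Mcts2, Bcl2l1 and Tpx2) were between -0.07 and 0.39. Near Id2, the adjacent Kidins220 differed by 0.00 and 0.10 and Rnf144a by 0.45 and 0.85, against the direction of Id2, and the interferon-induced gene Rsad2 by -2.14 and by a bound of -1.67. Cmpk2 differed by -0.24 and -1.09, and Mboat2 by 0.12 and 1.03.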

How the data were processed

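Gene expression was measured in Th2 cells of 4 conditions with 1 Agilent 1-color array each. The authors deposited, per array, the scanner software's background-corrected intensity of each spot (Agilent Feature Extraction 10.7, per the labels and the file headers). The authors' second file, a table of log2 values, equals the log2 intensity minus the 75th percentile of the array for 99.6% to 99.7% of probes within 0.01.

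From the intensities, log2 values minus the 75th percentile were computed. Control and outlier spots (77 to 106 an array) were left out, and spots of a probe were averaged. Probes were named by RefSeq accession (GRCm38.p6). Of 41174 probes 27198 matched, or 66.1%. The arrays were designed on mm9, so no position of a probe is given. A gene takes its brightest probe, and a probe above background on only 1 array of a pair gives a bound. On the other array the bound uses the dimmest signal above background or, where that is higher, the probe's own signal. Tests across conditions were not possible with 1 array each. All genes, lists, profile rules and markers were chosen with earlier results of these data known. Named are the 9 genes, list genes past 2-fold with SH-2251 or needed to describe a list, and the 5 (Gfi1) or 3 (Id2, Id3) nearest profiles. Genes near them in the genome were added later. Of the listed genes, 2 are not reported here. Normexp (offset 50) used the median signals of spots, since mean signals were not in the columns used. The procedure was run on simulated arrays, with an outcome that is not given here. The planted changes were all beyond 2-fold and in probes above background with small technical error. Probes of larger technical error and changes near 2-fold were not covered. Python 3.11.15, numpy 2.4.6, pandas 2.3.3, matplotlib 3.10.9, R 4.3.3 and limma 3.58.1 were used.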

Additional observations from a re-analysis of the deposited data

How the results depend on the processing

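Other settings were the median of all probes or quantile normalization as scaling, normexp, the authors' table, outlier spots kept, no filter, the mean of a gene's probes, and folds of 1.5 and 3. Normexp without spots of uneven background was added after the data had been seen. Among differences beyond technical error none changed sign, except Hdac2 in restimulated minus resting treated cells. That value ran from -0.52 (normexp) to 0.79, and was 0.42 under normexp without the uneven spots. Under normexp Gfi1 was -4.32 with SH-2251 in resting cells, 2.72 for its response in treated cells and 1.88 for the difference of responses. Without the uneven spots these were -4.80, 3.20 and 2.36. Normexp fitted a mean background of -152 on the resting SH-2251 array, and of 7.42 once 12 uneven spots were left out, against 7.36 to 8.23 on the other arrays. With normexp the share of all genes past 2-fold was 1.28% down and 5.47% up for SH-2251 at rest, and 12.0% down and 5.8% up for the treated response. Of the 8 genes, 2 (Id3 and Hdac2) were then 2-fold up with SH-2251 at rest, 1 up in the control response and 0 down in the treated response. Of all genes, 4.93% were 2-fold up in the control response under normexp. Without the uneven spots, 1 of the 8 genes was 2-fold up with SH-2251 at rest, beside 0.962% of all genes. In the treated response 1 was then 2-fold down, beside 3.51% of all genes, and both counts equal those of the main processing. The control response then had 1 of the 8 genes up, beside 4.91% of all genes. A fold of 1.5 gave 2 down and 2 up with SH-2251 at rest, 2 up after restimulation, 1 down and 3 up in the control response and 2 down and 3 up in the treated response. A fold of 3 gave 0 up with SH-2251 after restimulation, 0 up in the control response, and 0 down and 1 up in the treated response. The shares of all genes past folds of 1.5 and 3 are not given here, so these counts cannot be set against all genes. Over all settings of the values Id3 with SH-2251 was 1.56 to 1.95 in resting and 1.06 to 1.28 in restimulated cells, Id1 0.59 to 0.88 and 0.45 to 0.83, and Id2 -0.96 to -0.52 and -0.49 to -0.32. Of 35 other values, normexp moved 15 by more than the technical SD, normexp without the uneven spots 7 and quantile normalization 1 (Ehmt2 in the treated response, -0.95). The cause was not tested. Signal over background limits Hdac2, Id1 and Ajuba. No paired analysis was possible because each condition has 1 array, and no array could be left out for the same reason.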
